A study of Mus musculus with 17 samples.

Results

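The 10 genes described here were Rbpj, the receptor genes Notch1, Notch2 and Notch3, the ligand genes Dll1, Jag1 and Jag2, and the target genes Hes1, Hes5 and Hey1. They were taken by symbol from the 24498 gene symbols of the count table, and all 10 were found and passed the filter on low counts in every fit. RNA was from 1 mm slices of mouse dorsal hippocampus, and poly(A) libraries were made from 300 ng of total RNA. The mice were wild type (WT) or constitutive Acss2 knockouts (KO, written ACSS2KO in the labels), both lines derived from heterozygous parents and then bred by homozygous crosses. All received an intracranial injection at 6 months of age, either of tau purified from the frontal cortex of Alzheimer's disease brains (Tau) or of phosphate-buffered saline (PBS), and tissue was taken 6 months later, per the labels after perfusion with paraformaldehyde. There were 17 libraries in 6 groups, each library named by the number in its label. WT PBS males (791, 792, 793), WT Tau males (771, 772, 773), KO PBS males (751, 752, 753), KO Tau males (711, 712, 713) and KO Tau females (314, 324, 325) had 3 libraries each, and WT Tau females (331, 341) had 2. There was no female PBS group, and all female libraries have numbers in a 3xx series while all male libraries have numbers in a 7xx series, so sex and that series cannot be told apart. The labels do not say whether libraries came from separate mice, so the tests measure the spread between these libraries.

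Notch receptors sit in the cell membrane and are cut when a ligand of the Delta or Jagged family on a neighbouring cell binds them. The part released inside the cell enters the nucleus and joins Rbpj, a DNA-binding protein that holds its target genes repressed with corepressors until Notch arrives and coactivators take their place. In the adult hippocampus the pathway is best known for keeping neural stem cells of the dentate gyrus undivided, and it is also used by astrocytes, by neurons and, through Notch3, by the mural cells of blood vessels. In bulk tissue, fewer cells of a type and less RNA per cell cannot be told apart.

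The Rbpj protein binds a short sequence with the core TGGGAA. That core, on either strand, occurred in 21.6% of 32851 RefSeq promoter windows of 250 bases before a RefSeq start (GRCm38.p6). Of the members, 8 matched a window, 10 windows in all, and 3 of the 10 held the core: the Hes5 window and both windows of Rbpj itself, which overlap each other. Hes1 and Hey1 had no entry in the table used. The stretches of the Hes5 and Rbpj windows that precede the first annotated exon within the window are shown because these windows hold a core. Hes5 is also the textbook target whose level varied most here. By the GENCODE M21 coordinates given below, both Rbpj windows and the Notch1 and Jag2 windows lie inside the annotated genes. So does the Dll1 window at chr17:15375824-15376073, and the Jag1 and Notch2 windows lie partly inside. Capitals mark TGGGAA or its reverse complement TTCCCA.

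Hes5, chr4:154960673-154960769, plus strand: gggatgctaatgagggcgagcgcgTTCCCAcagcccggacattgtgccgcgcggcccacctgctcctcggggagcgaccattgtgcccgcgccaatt

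Rbpj, chr5:53590096-53590213, plus strand: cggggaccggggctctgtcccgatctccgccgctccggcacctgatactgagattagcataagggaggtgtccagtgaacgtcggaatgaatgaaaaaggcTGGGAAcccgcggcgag

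In the Hes5 window the matches began 226 and 82 bases before the RefSeq start. In the upstream Rbpj window they began 149 and 65 bases before its own RefSeq start. The nearer match of each lies past the stretch shown. The match in the second Rbpj window, 205 bases before its start, is the nearer match of the first window again. The N box CACNAG, a sequence bound by Hes repressors, occurred in 36.7% of all windows and in 3 of the 10 member windows, those of Notch1, Notch2 and Notch3. The Notch3 window held it at 2 places, 204 and 159 bases before the start. A match is a description of the letters and not evidence of binding.

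Library totals ran from 14183131 to 22463635 counts, so 3 counts equalled 0.134 to 0.212 CPM (the usual scaling of a count by its library total). The 3 counts were taken as a working limit for a reading of 0 and are not a hard bound. These limits cover counting error only. Member counts ran from 58 (Dll1 and Hes5) to 1176 (Hey1) per library. The deleted gene, Acss2, had 3.07 to 8.81 CPM across the 9 KO libraries, against 44.0 to 54.6 CPM across the 8 WT ones. All genes of 14 marker lists for hippocampal and neighbouring cell types were detected in every group. Library 752 stood apart, with 794 summed CPM of striatal markers against 173 to 298 in the other 16, and with the lowest dentate granule score (3.16, mean log2 CPM of the list). Library 711 had 8328 summed CPM of astrocyte markers against 4538 to 5362 in the other male libraries. Library 713 had 5349 summed CPM of choroid plexus markers against 224 to 1100 in the others. 

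Per kilobase of annotated exon, Hey1 was the most abundant member, with a median of 15.3 CPM per kb over the 17 libraries. It was followed by Hes5 (7.41), Jag2 (5.50), Hes1 (4.92), Notch2 (3.29), Notch1 (2.50), Dll1 (1.69), Notch3 (1.48), Rbpj (1.32) and Jag1 (1.15 CPM per kb). The 3 target genes were thus among the 4 highest members on this scale, and Rbpj was ninth of 10. The order depends on the length used, the union of all annotated exons (12750 bases for Rbpj, 1363 for Hes5). In CPM alone the medians were 16.8 for Rbpj, 10.1 for Hes5 and 10.0 for Hes1. Hey1 was also the steadiest, with a coefficient of variation within groups of 7.7% in CPM, while Hes5 varied by 31.1%, Notch2 by 25.4%, Notch1 by 22.4% and Dll1 by 21.8%. Over 6392 genes in the same range of CPM the median was 13.1%, with quartiles of 9.77% and 18.4%. With the 6 group means of each gene in order, the 5 neighbouring pairs differed by no more than the larger SD of the pair in 7 of the 10 members. The exceptions were Jag1, at the step from WT PBS males to WT Tau females, Hes1, at the step from WT Tau males to WT Tau females, and Notch3, at the steps from WT PBS males to KO Tau females and from these to WT Tau females.

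**Figure D1:**
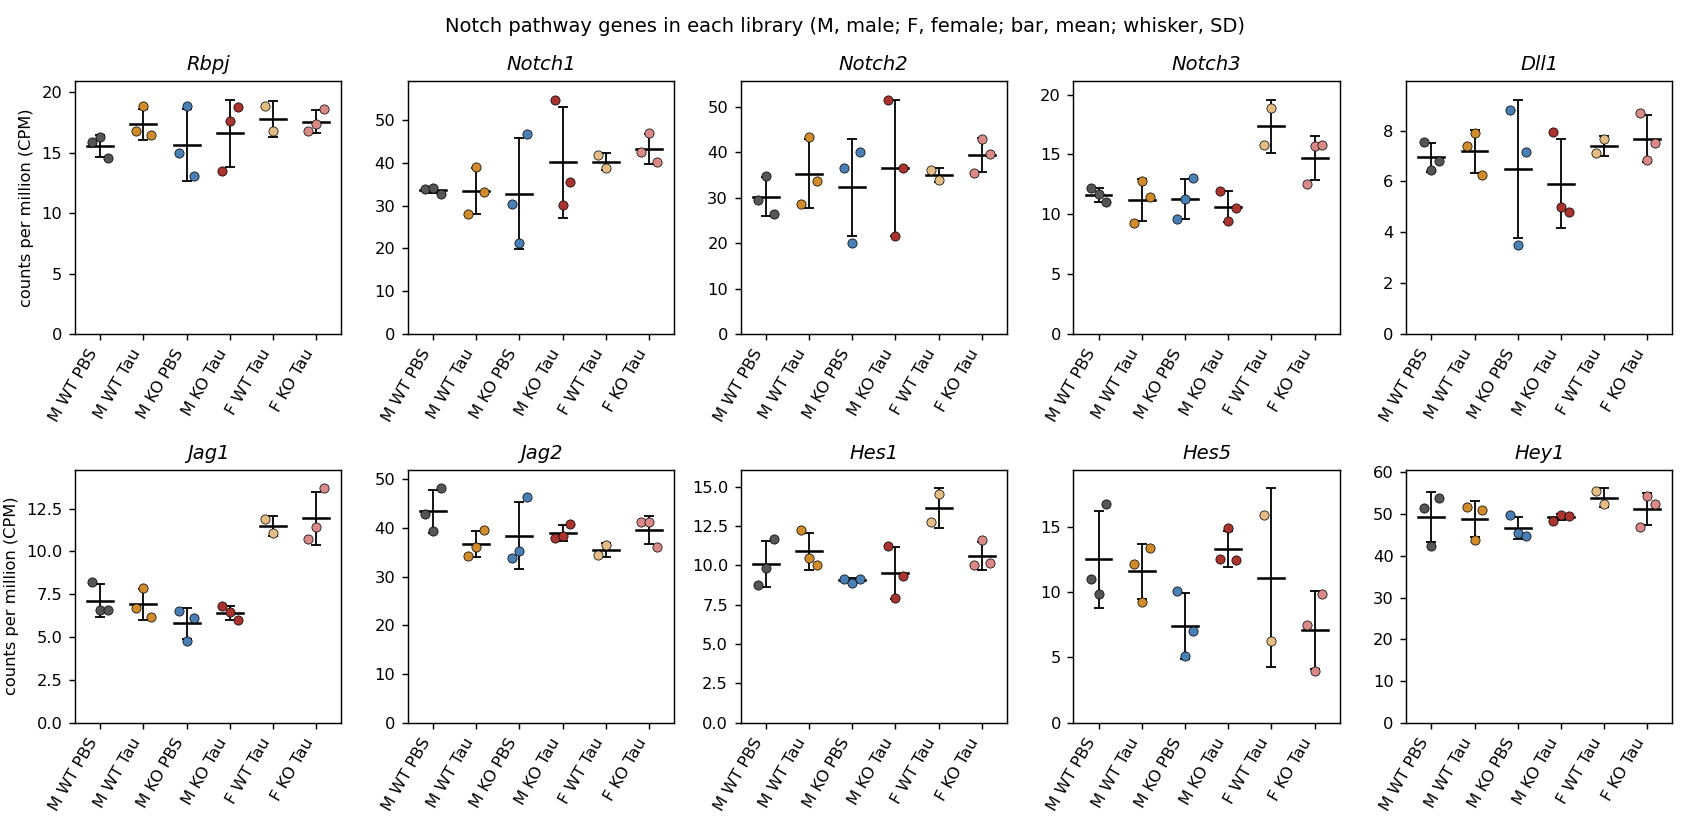
CPM (y axis, from 0) of each gene in each library (points) by group (x axis; M male, F female), with the group mean (bar) and SD (whiskers). Jag1 sits between 10.7 and 13.7 CPM in all 5 females but between 4.78 and 8.22 CPM in all 12 males, Hey1 is nearly level over the groups, and the Notch1 and Notch2 points spread most within KO PBS males and KO Tau males.

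Rbpj (ENSMUSG00000039191.12, GRCm38 chr5:53466152-53657362, plus strand) encodes the DNA-binding factor on which all 3 receptors converge. Coordinates of this and the other genes are those of GENCODE M21 on GRCm38. The libraries had 15.9, 16.3 and 14.6 CPM in WT PBS males (791, 792, 793), 16.8, 18.9 and 16.4 in WT Tau males (771, 772, 773), 15.01, 18.9 and 13.1 in KO PBS males (751, 752, 753), and 13.5, 17.6 and 18.8 in KO Tau males (711, 712, 713). In females they were 18.9 and 16.8 CPM in WT Tau (331, 341) and 16.8, 17.4 and 18.6 CPM in KO Tau (314, 324, 325). The whole range over 17 libraries was 1.45-fold, from 13.1 CPM in 753 to 18.9 CPM in 752, both of the same group. Group means ran from 15.6 ± 0.922 CPM (SD, n = 3) in WT PBS males to 17.8 ± 1.48 CPM (SD, n = 2) in WT Tau females, and none of the 5 neighbouring means in that order differed by more than the larger SD of the pair.

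In tests of counts with edgeR's quasi-likelihood method, a gene was called when its Benjamini-Hochberg adjusted p (FDR, over all genes tested) was under 0.05. Rbpj was called in no comparison. Its log2 fold change was 0.14 (SE 0.15) for WT Tau males against WT PBS, 0.06 (SE 0.15) for KO PBS against WT PBS, 0.10 (SE 0.15) for KO Tau against WT PBS, -0.04 (SE 0.15) for KO Tau against WT Tau and 0.04 (SE 0.15) for KO Tau against KO PBS. The 95% intervals bounded the change between 0.772-fold and 1.39-fold over these 5 comparisons. All 3 WT Tau males lay above all 3 WT PBS males, a separation that 12.2% of all genes tested showed in that pair in either direction. The difference between female and male Tau libraries was -0.01 (SE 0.10), with an interval from 0.858-fold to 1.15-fold, and the test over all 6 groups gave an edgeR FDR of 0.947.

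The 5 genes whose log2 CPM followed that of Rbpj most closely over the 17 libraries, among 11684 genes of at least 5 CPM, were Asah2 (Pearson r = 0.86), Slf1 (0.83), Edil3 (0.82), C030039L03Rik (0.81) and Rnf152 (0.80). No other member was among them. These values describe the libraries, which share dissection and depth, and carry no p.

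None of the 10 members was called in the 5 pairwise comparisons of male groups, nor in the interaction of genotype and Tau. The background was as low: 0% of 15098 genes were called for WT Tau against WT PBS, 0.00662% (1 gene) for KO PBS against WT PBS, 0.00662% for KO Tau against WT PBS, 0.00662% for KO Tau against WT Tau, 0% for KO Tau against KO PBS and 0% for the interaction. DESeq2 on the same libraries also called 0 of 10 members in each. At an unadjusted p under 0.05, edgeR gave Hes5 in 3 of the 6 comparisons and no other member. These were KO PBS against WT PBS, KO Tau against KO PBS and the interaction, which all use the same KO PBS libraries. Of all genes, 4.42%, 7.95% and 4.18% had such a p there. Over the members the median log2 fold change was -0.03, -0.03, -0.04, 0.00 and 0.04 in the 5 pairs in the order above, beside -0.01, 0.01, 0.00, 0.01 and 0.00 over all genes tested. The groups share libraries, so these comparisons are not independent of each other.

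**Figure D2:**
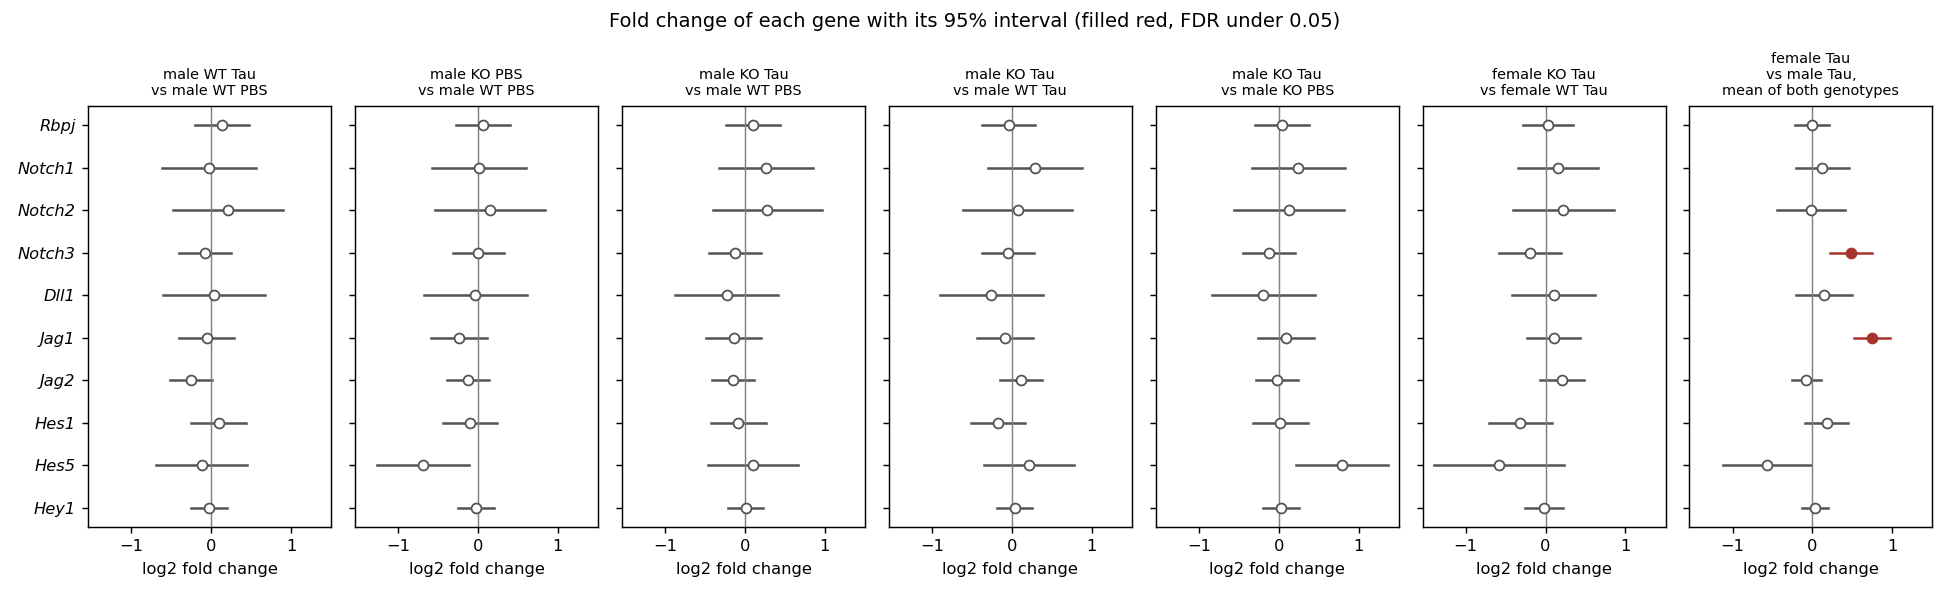
Log2 fold change of each gene (point) with its 95% interval (line) from edgeR in 7 comparisons (panels); filled red marks an FDR under 0.05. Only Jag1 (0.75) and Notch3 (0.49) are filled, both in the panel of female against male Tau libraries. The Notch2, Dll1, Notch1 and Hes5 intervals are among the widest, and that of Hes5 is the widest in both panels with females.

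Notch1 (chr2:26457903-26516663, minus strand), the receptor best known from neural stem cells, and Notch2 (chr3:98013527-98150361, plus strand), its close paralog, spread more within male KO groups than between groups. Notch1 stood at 33.8, 34.2 and 32.8 CPM in WT PBS males, 28.1, 38.9 and 33.1 in WT Tau males, 30.3, 21.2 and 46.7 in KO PBS males (751, 752, 753) and 54.7, 30.1 and 35.6 in KO Tau males (711, 712, 713). The lowest and the highest Notch1 levels of all 17 libraries were thus in the 2 male KO groups, in 752 and in 711. In females Notch1 was at 41.7 and 38.8 CPM in WT Tau and at 42.5, 46.9 and 40.2 CPM in KO Tau. Notch2 stood at 29.4, 34.8 and 26.3 CPM in WT PBS males, 28.6, 43.5 and 33.8 in WT Tau males, 36.6, 20.1 and 40.1 in KO PBS males, and 51.5, 21.5 and 36.4 in KO Tau males. In the 5 females Notch2 ran from 33.9 to 43.0 CPM. Again 752 was the lowest and 711 the highest, and the male groups overlapped in each pair compared.

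For KO Tau against WT PBS in males, edgeR put Notch1 at 0.26 (SE 0.27, FDR 0.892) and Notch2 at 0.28 (SE 0.31, FDR 0.901) on the log2 scale. The Notch2 interval reached from 0.755-fold to 1.96-fold, so changes within that range were not excluded. Without library 711 both values turned sign, to -0.032 for Notch1 and -0.0569 for Notch2.

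Notch3 (chr17:32120820-32166852, minus strand), the receptor of vascular mural cells, was level in males, at 9.30 CPM (771) to 13 CPM (753) over the 12 libraries, with group means between 10.7 ± 1.28 CPM (SD, n = 3) in KO Tau males and 11.7 ± 0.593 CPM (SD, n = 3) in WT PBS males. Its 5 pairwise log2 fold changes in males lay between -0.13 and 0.01. In females it was at 15.8 and 18.9 CPM in WT Tau and at 12.6, 15.7 and 15.8 CPM in KO Tau. The female values reached above the male ones and overlapped them only through library 314.

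Jag1 (chr2:137081456-137116644, minus strand) and Jag2 (chr12:112907819-112929776, minus strand) encode the Jagged ligands. Jag1 stood at 8.22, 6.56 and 6.56 CPM in WT PBS males, 6.68, 7.89 and 6.15 in WT Tau males, 6.54, 4.78 and 6.09 in KO PBS males, and 6.81, 6.46 and 5.98 in KO Tau males. All 3 KO PBS males were below the 3 WT PBS males, by a margin of 6.54 against 6.56 CPM at the edge, and 11.7% of all genes separated that pair. The fitted difference was -0.24 (SE 0.16, edgeR FDR 0.999). In females Jag1 was at 11.9 and 11.1 CPM in WT Tau and at 10.7, 11.4 and 13.7 CPM in KO Tau, above every male library.

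Jag2 was higher per kilobase than Jag1 and lay between 33.7 and 48.1 CPM in all 17 libraries. Its lowest log2 fold change was -0.26 (SE 0.12, edgeR FDR 1.00) for WT Tau males against WT PBS, where the libraries were at 34.2, 36.2 and 39.5 CPM against 42.8, 39.3 and 48.1 CPM. The groups overlapped by 1 library on each side.

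Dll1 (chr17:15367354-15376872, minus strand), the Delta ligand of the set, was at 7.56, 6.46 and 6.80 CPM in WT PBS males, 7.40, 7.89 and 6.25 in WT Tau males, 8.83, 3.51 and 7.14 in KO PBS males (751, 752, 753), and 7.95, 5.00 and 4.80 in KO Tau males (711, 712, 713). Of the 3 libraries that stood apart in markers, 752 was thus the lowest of KO PBS, and 711 and 713 were the highest and the lowest of KO Tau. With all libraries the log2 fold change for KO Tau against KO PBS was -0.19 (SE 0.29, edgeR FDR 0.888). It was -0.49 without 752, -0.47 without 711 and 0.11 without 751, none of them called. With both left out, an alternative chosen after seeing the data, it was -0.76 (edgeR FDR 0.0206) and Dll1 was the 1 member called, where 10.4% of all genes were called. In the same fit 0 of 10 members were called for KO Tau against WT PBS (1.27% of all genes), for KO Tau against WT Tau (4.61%) and for the interaction (6.86%). The 4 libraries then left in the pair also differed in neocortical markers, with scores of 4.06 and 4.63 in 751 and 753 against 5.81 and 5.67 in 712 and 713, and they include 713 with its choroid plexus markers; the part of tissue make-up in the Dll1 difference was not tested.

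The labels hold more KO Tau males than the bulk test of the study, which does not name a library as left out. DESeq2 on only the 2 groups compared was therefore run with each KO Tau library left out in turn. Without 711 it called 7.13% of all genes for KO Tau against WT PBS and 9.29% for KO Tau against WT Tau, and 0 of 10 members in both. Without 712 the shares were 0.343% and 0.0778%, and without 713 they were 0.0364% and 0.0311%, again with 0 of 10 members. Without 711 the lowest adjusted p among the members was that of Dll1, at 0.200 and 0.154, with log2 fold changes of -0.50 and -0.53. Rbpj had log2 fold changes of 0.23 (adjusted p = 0.458) and 0.08 (adjusted p = 0.842) in the DESeq2 fits without 711.

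Hes1 (chr16:30064384-30067796, plus strand), Hes5 (chr4:154960923-154962371, plus strand) and Hey1 (chr3:8663359-8667256, minus strand) encode transcriptional repressors of the basic helix-loop-helix class and are direct targets of Notch with Rbpj. Hey1 ran from 42.5 to 55.5 CPM over the 17 libraries, and its 5 male log2 fold changes lay between -0.03 and 0.03, each with an SE of 0.10. The interval for KO Tau against WT PBS, 0.862-fold to 1.17-fold, was the narrowest among the members. Hes1 ran from 7.92 CPM in 712 to 14.5 CPM in 341, and its male log2 fold changes lay between -0.18 and 0.09 (SE 0.16).

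Hes5, which marks neural stem cells and some astrocytes, varied most. It stood at 10.96, 9.82 and 16.7 CPM in WT PBS males (791, 792, 793), 12.2, 9.26 and 13.3 in WT Tau males, 10.1, 5.08 and 7.05 in KO PBS males (751, 752, 753), and 12.5, 14.9 and 12.5 in KO Tau males (711, 712, 713). The 2 lowest male levels were thus in KO PBS (752 and 753). All 3 KO PBS libraries lay below all 3 KO Tau libraries, a separation shown by 9.01% of all genes in that pair, while 751 overlapped with 792 of WT PBS. In log2 terms Hes5 was at -0.69 (SE 0.26, edgeR FDR 0.999) for KO PBS against WT PBS and at 0.79 (SE 0.26, edgeR FDR 0.550) for KO Tau against KO PBS. The interaction of genotype and Tau was 0.91 (SE 0.37, edgeR FDR 0.996), and KO Tau differed from WT PBS by 0.10 (SE 0.26). None of these passed the correction over all genes. The signs of the first 3 values held under every alternative run on them, and without library 752 they were -0.49, 0.58 and 0.70.

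In females Hes5 was at 15.9 and 6.28 CPM in WT Tau and at 7.47, 3.96 and 9.83 CPM in KO Tau. The 2 WT libraries thus enclosed the KO libraries except 324, and the log2 fold change of -0.58 (SE 0.37, edgeR FDR 0.997) rested on 331, without which it was 0.19.

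For genotype under Tau in females, 0 of 10 members were called by edgeR, and 0.00649% of 15419 genes (1 gene) were. DESeq2 also gave 0 members, and no member had an unadjusted edgeR p under 0.05. Hes1 was at 12.7 and 14.5 CPM in WT Tau and at 10.0, 11.6 and 10.1 CPM in KO Tau, and together with Notch3 it was the member whose KO libraries all lay below both WT libraries. That separation, in either direction, was shown by 16% of all genes in this pair of 2 against 3 libraries. The Notch3 KO libraries reached 15.80 CPM against 15.80 CPM in the lower WT library, a margin too small to show at this rounding. In log2 terms edgeR gave -0.32 (SE 0.18, FDR 0.997) for Hes1 and -0.20 (SE 0.18, FDR 0.997) for Notch3. The genotype effect did not differ detectably between the sexes: 0% of genes were called for the interaction of sex and genotype, 0 of 10 members by edgeR or DESeq2, and none had an unadjusted edgeR p under 0.05. The widest of the intervals, that of Hes5, ran from 0.270-fold to 1.22-fold.

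In no member were the KO Tau males separated from the WT PBS males (14.4% of all genes were) or from the WT Tau males (12.6% of all genes).

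Between female and male Tau libraries, averaged over both genotypes, 2 of 10 members were called, Jag1 and Notch3, both higher in females. The background was high, with 23.8% of all genes called (3674 of 15419), against 2 of the 10 members. That share rested in part on library 331: without it 3.99% of all genes were called (628 of 15739), while Jag1 (edgeR FDR 0.0184) and Notch3 (edgeR FDR 0.0471) were still the 2 members called. On the log2 scale Jag1 was 0.75 higher (SE 0.10, 1.44-fold to 1.96-fold, edgeR FDR 0.00288). All 5 female libraries, at 10.7 to 13.7 CPM, were above all 6 male Tau libraries, at 5.98 to 7.89 CPM, and 10.5% of all genes separated these groups. Notch3 differed by 0.49 (SE 0.12, 1.17-fold to 1.68-fold, edgeR FDR 0.0179), at 12.6 to 18.9 CPM against 9.30 to 12.8 CPM. Hes5 was at -0.56 (SE 0.25, edgeR FDR 0.118), which did not pass, and the other 7 members lay between -0.08 and 0.18. Sex and the number series of the libraries cannot be told apart here.

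Jag1 kept its call in every alternative run on this comparison, at 0.71 to 0.80. Notch3 lost its call without library 341 (0.40, edgeR FDR 0.0555), which held its highest level, where 22.8% of all genes were called. Leaving out 711 raised the share of all genes called to 40.7% and the members called to 3, with Notch1 at 0.29 (edgeR FDR 0.0461). Over the 6 groups, 19% of 15594 genes were called for any difference, and among the members Jag1 alone was (edgeR FDR 0.00278); Notch3 had an edgeR FDR of 0.0578. In the same test 27.3% of all genes were called by DESeq2, and by edgeR 10.4% without 331 and 30.2% without 711.

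Some marker lists of vessels and glia also ran higher in the females. Summed mural markers ran from 241 to 365 CPM among the 5 females, against 170 to 268 CPM among the 12 males, and endothelial markers from 300 to 416 CPM against 155 to 316 CPM. Astrocyte markers were at 8729 to 9829 CPM against 4538 to 8328 CPM, where 711 was the highest male. Thalamic markers were at 204 to 696 CPM against 200 to 344 CPM. Oligodendrocyte precursor markers were nearly level, at 335 to 462 CPM against 278 to 454 CPM. Female library 314, whose thalamic level of 204 CPM was within the male range, had the lowest female levels of Jag1 (10.7 CPM, above the males) and Notch3 (12.6 CPM, within the male range). The mural (241 CPM) and endothelial (300 CPM) markers of 314 were also the lowest among the females and within the male ranges. Female library 324 had mural markers at 245 CPM, within the male range, while its Notch3 level of 15.7 CPM was above every male. The part of cell make-up in the Jag1 and Notch3 differences was not tested.

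Within groups some members varied together. As deviations of log2 CPM from the group mean over the 17 libraries, Notch1 and Notch2 rose and fell together (Pearson r = 0.88, and 0.87 without the 2 libraries farthest out in Notch1). Notch1 and Dll1 had r = 0.68 and Notch2 and Dll1 r = 0.68, which fell to 0.49 and 0.48 without the 2 farthest libraries. Rbpj had r = -0.73 to Notch1, -0.72 to Dll1 and -0.53 to Notch2, which shrank to -0.48, -0.44 and -0.12 without the 2 farthest. Of all 45 pairs, 6 had r above 0.5 and 4 had r below -0.5, with a median of 0.07. These are descriptions over libraries that share dissection and depth, and the share of such pairs among other genes was not computed.

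The same deviations followed marker lists. Notch1 went with the lists of oligodendrocyte precursors (r = 0.92) and microglia (0.90), and Notch2 likewise (0.83 and 0.82). Dll1 went against the neocortical list (-0.91, or -0.83 without the 2 libraries farthest out in that list) and with the dentate granule list (0.79, or 0.50 without the 2 farthest in it). Rbpj went against the CA1 pyramidal list (-0.77) and with the neocortical list (0.72), the latter falling to 0.40 without the 2 farthest libraries. Jag1 went with the Cajal-Retzius list (0.89), a cell type of the hippocampal fissure, and Notch3 with the mural list (0.73). Jag1 also went with the neural stem and progenitor (0.705), dentate granule (0.681) and thalamic (0.673) lists. Without the 2 libraries farthest out in each list, Jag1 had 0.849 for Cajal-Retzius and 0.815 for thalamus. These 2 lists share Calb2. For Hes5 the r of largest size was 0.45 (dentate granule), and for Hey1 it was -0.38 (choroid plexus).

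**Figure D3:**
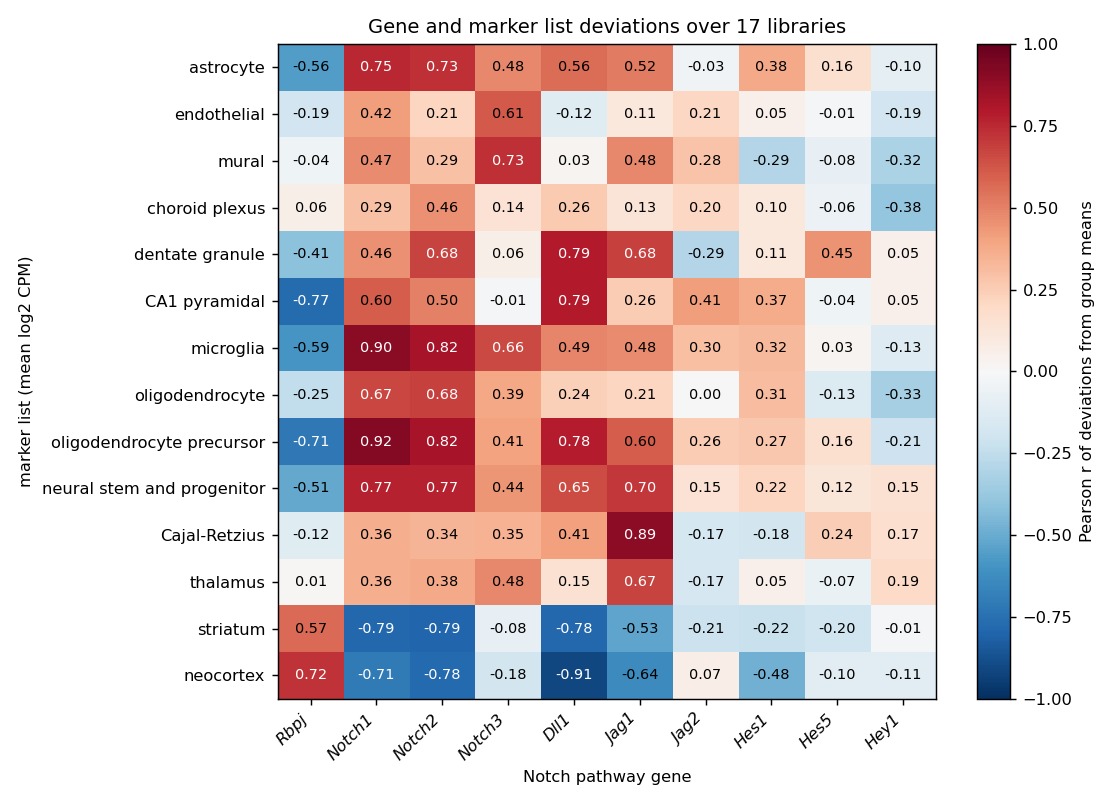
Pearson r (colour and number) between the deviations from group means of each gene (columns) and of each marker list (rows) over 17 libraries. Notch1, Notch2 and Dll1 are all high for oligodendrocyte precursors (0.92, 0.83 and 0.78) and low for striatum (-0.79, -0.79 and -0.78), and Rbpj has the opposite sign for both (-0.71 and 0.57). Without the 2 libraries farthest out in each list, Rbpj had -0.41 and 0.35. For striatum Dll1 then had -0.44, while Notch1 and Notch2 had -0.83 and -0.74.

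Beyond the 10 members, 64 further genes of the pathway were examined, of which 63 were tested in the male and in the Tau fits. They comprise Notch4, other ligands, ADAM and gamma-secretase genes, glycosyltransferases, trafficking and turnover factors, coactivators, corepressors and other Hes and Hey genes. By edgeR, 0 of 63 were called in each of the 5 male pairs, the male interaction, the female genotype comparison and the interaction of sex and genotype, and DESeq2 on the same libraries called none either. Unadjusted p under 0.05 was reached by 1 to 6 of the 63 in these comparisons. The share of the list was 4.76% against 1.86% of all genes for WT Tau against WT PBS males, and 4.76% against 2.89% for female genotype. It was 1.59% against 6.33% for KO Tau against WT PBS males, and 1.59% against 2.94% for sex by genotype. For KO PBS against WT PBS, KO Tau against WT Tau and the male interaction it was 4.76%, against 4.42%, 4.71% and 4.18%. The 6 were in KO Tau against KO PBS, where all genes gave 7.95% and the list 9.52%. Among them were Psenen, a subunit of gamma-secretase (0.23, SE 0.09, edgeR FDR 0.570), and Neurl1b, a ubiquitin ligase (0.34, SE 0.15, edgeR FDR 0.614). Tle2, a Groucho corepressor, was at -0.55 (SE 0.19, edgeR FDR 0.999) for KO PBS against WT PBS and at 0.73 (SE 0.27, edgeR FDR 0.996) in the male interaction. For WT Tau against WT PBS males it was also lower, at -0.46 (SE 0.19, edgeR FDR 0.9999). In females it was at 0.49 (SE 0.21, edgeR FDR 0.997) for KO Tau against WT Tau.

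In the DESeq2 fits without 711 the list had 5 genes called for KO Tau against WT PBS (Fbxw7, Neurl1a, Numb, Numbl and Snw1) and 3 for KO Tau against WT Tau (Fbxw7, Mib2 and Numb), of 62 with an adjusted p in each. Over all genes these fits called 7.13% and 9.29%. With all libraries edgeR gave Numb, an antagonist of Notch at the membrane, 0.30 (SE 0.26, FDR 0.870) and 0.41 (SE 0.26, FDR 0.927) in the 2 comparisons. Fbxw7, which marks the released Notch fragment for destruction, was at 0.18 (SE 0.18, FDR 0.892) and 0.23 (SE 0.18, FDR 0.927) in the same edgeR fit. These genes were named after their values were seen.

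Between female and male Tau libraries, 18 of the 63 genes were called by edgeR, 5 higher and 13 lower in females, beside the background of 23.8%. The higher ones were Lfng, a fringe enzyme that modifies Notch receptors (0.83, SE 0.15, edgeR FDR 0.00720), Notch4, the endothelial receptor (0.60, SE 0.16, edgeR FDR 0.0215), Hey2 (0.58, SE 0.14, edgeR FDR 0.0174), the acetyltransferase gene Kat2b (0.52, SE 0.16) and Aph1b, a gamma-secretase subunit (0.31, SE 0.08). The lower ones included Numbl, a relative of Numb (-0.64, SE 0.16), Tle2 (-0.56, SE 0.14), the acetyltransferase gene Kat2a (-0.53, SE 0.09) and Mib2, a ubiquitin ligase that acts on ligands (-0.47, SE 0.09), and also Dlk2, Dtx2, Dtx1, Rfng, Kdm1a, Ncstn and Dtx3, at -0.49 to -0.27. The median over the list was -0.10, against -0.01 over all genes tested. Without library 331 the count fell to 3 (Kat2a, Lfng and Mib2), beside 3.99% of all genes, and without 711 it was 31, beside 40.7%.

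**Figure D4:**
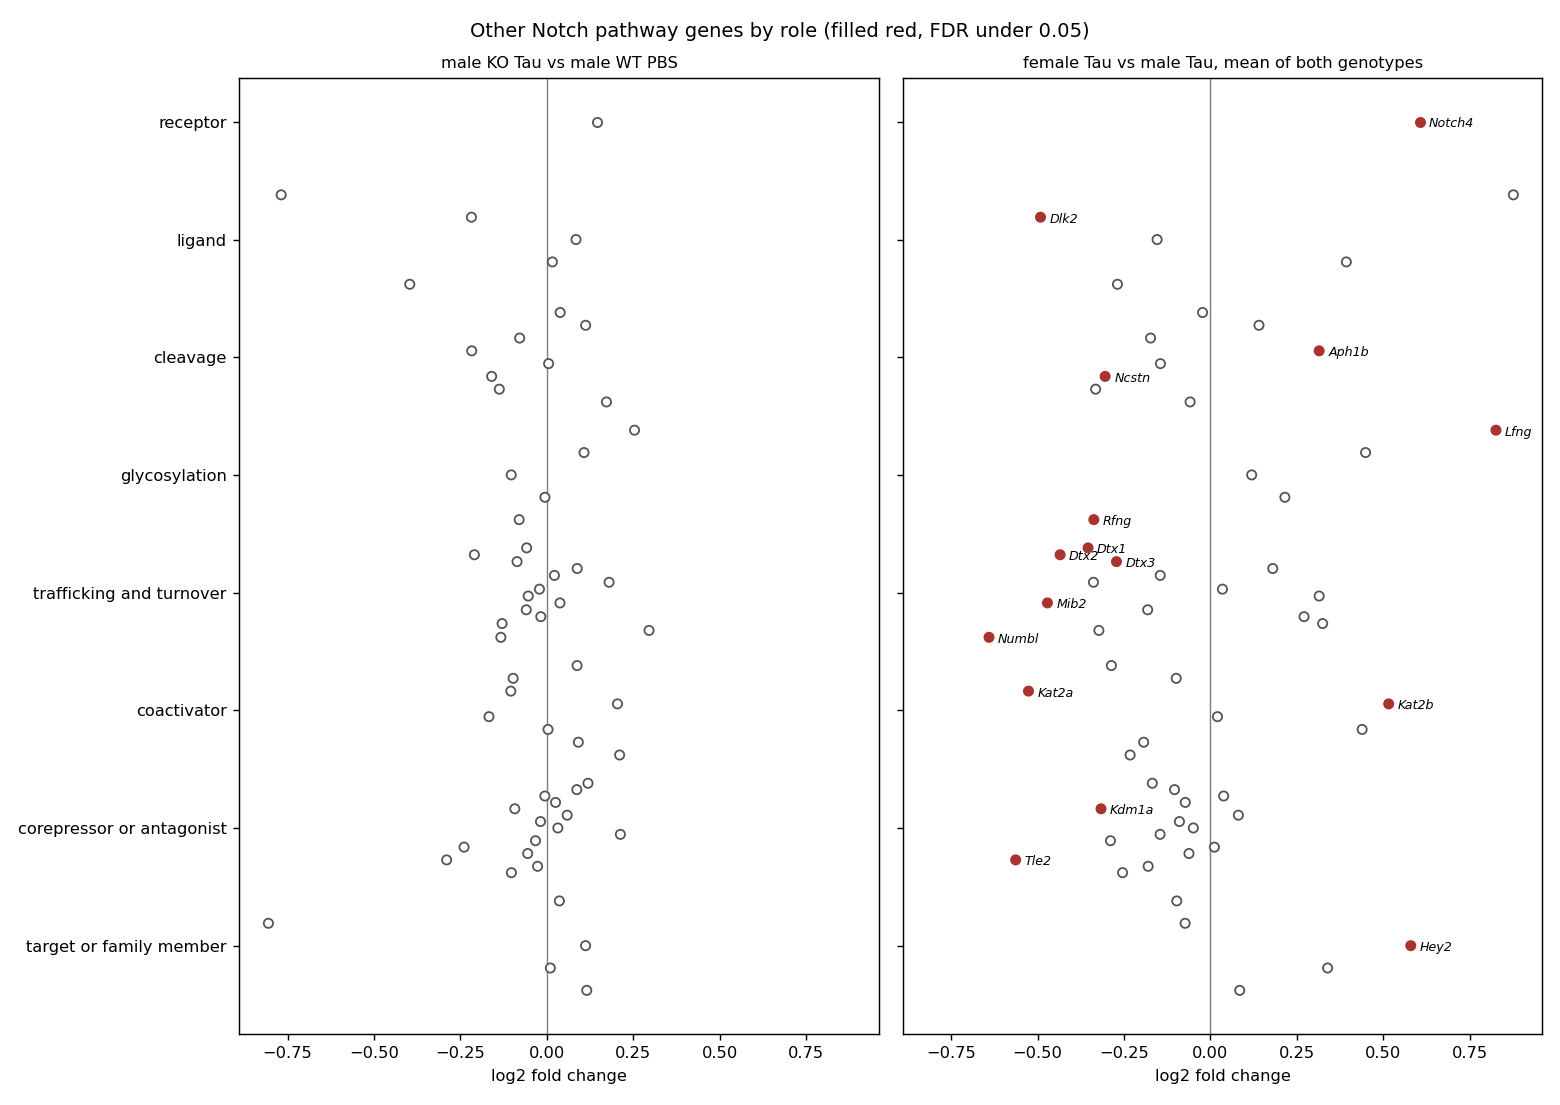
Log2 fold change (x axis) of 61 other Notch pathway genes (points) by role (y axis) for KO Tau males against WT PBS males (left) and female against male Tau (right); filled red marks an edgeR FDR under 0.05. No gene is filled on the left, and 16 are on the right, 5 of them above 0 (Lfng, Notch4, Hey2, Kat2b and Aph1b).

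Some values may include reads from shared sequence, which was not tested. Exons of Notch1, Notch3, Dll1 and Hes5 overlap those of genes on the opposite strand, over 1482, 488, 867 and 433 bases, and those of Notch2 overlap Gm42820 on the same strand over 541 bases. The counting was set to reverse strand, and whether the library kit kept strand was not tested. Rbpj has 2 processed pseudogenes in the annotation (Rbpj-ps1 and Rbpj-ps3), not analysed here, and reads shared with them are an uncertainty of its value. Overlaps and pseudogenes are those of GENCODE M21, and none of these overlapping genes and pseudogenes is among the gene symbols counted.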

How the data were processed

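RNA-seq was analysed from 17 dorsal hippocampus libraries in 6 groups taken from the labels. The authors deposited unnormalised read counts for each gene symbol, obtained with STAR 2.5.2 (GRCm38) and HTSeq 0.9.1 in reverse-strand mode; replicates were not pooled, and the annotation release was not given in the sources used here. No pair among 136 library pairs had identical counts. CPM were computed from each library total, per kilobase with GENCODE M21 exon lengths.

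Counts were tested with edgeR 4.0.16 (R 4.3.3; TMM, filterByExpr with a minimum count of 10, glmQLFTest, two-sided, FDR 0.05 over all genes tested). Male contrasts came from 1 fit of 12 libraries (15098 genes), contrasts with females from 1 fit of 11 Tau libraries (15419 genes), and the test over the 6 groups from all 17 (15594 genes). The script was tested on simulated counts. Alternatives were DESeq2 1.42.0, RLE factors, no low-count filter, other sets of libraries and each replicate left out.

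Named genes were the members, Acss2, the 5 genes most like Rbpj, and, of 64 other pathway genes, those called and up to 2 per direction and comparison with the smallest p; some of these are counted but not reported here by name or plotted. The members and lists were chosen with earlier results of these data known. Promoter windows came from RefSeq. The depth behind each value is given with the results.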

Additional observations from a re-analysis of the deposited data

How the results depend on the processing

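Jag1 was called for female against male Tau in every alternative, and 0 of 10 members were called in each male pair, the male interaction and both genotype comparisons with females in every alternative but one (Dll1 for KO Tau against KO PBS, with 711 and 752 both left out). Of 90 log2 fold changes of members, 54 turned sign in at least 1 alternative, of which 52 were smaller than 1 SE. The causes were not tested unless the alternative is itself a loss of libraries. No paired analysis was possible because the groups share no replicate numbers.

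DESeq2 called 2 members over the 6 groups (Jag1 and Notch3) in place of 1, with 27.3% of all genes called in place of 19%. For female against male Tau, RLE factors moved Rbpj to 0.000483 and no filter to 0.0016. Without 711, DESeq2 on only the groups compared gave Notch1 -0.028 and Notch2 -0.054 for KO Tau against WT PBS. It called 5 other pathway genes there, beside 7.13% of all genes. Against WT Tau it gave Notch1 -0.0071, Rbpj 0.084 and 3 other pathway genes called, beside 9.29% of all genes. Without 712 it gave Hes1 0.043 against WT PBS and Rbpj -0.00056 against KO PBS, and without 713 Rbpj -0.058 against KO PBS. With 711 and 752 both left out, an alternative chosen after seeing the data, Notch1 was at -0.030 and Notch2 at -0.054 (KO Tau against WT PBS), Notch1 at -0.011 and Rbpj at 0.079 (against WT Tau), and Rbpj at -0.098 (KO PBS against WT PBS) and 0.18 (interaction). In that fit 1 member and 8 other pathway genes were called for KO Tau against KO PBS, beside 10.4% of all genes. The other pathway genes called were 1 for KO Tau against WT PBS (1.27% of all genes), 2 against WT Tau (4.61%) and 4 in the interaction (6.86%).

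Leaving out 1 replicate at a time gave these ranges in males. For KO Tau against WT PBS they were -0.032 to 0.45 (Notch1), -0.0569 to 0.56 (Notch2), -0.23 to 0.044 (Hes1), -0.042 to 0.36 (Hes5) and -0.080 to 0.080 (Hey1). For KO Tau against WT Tau they were -0.0075 to 0.47 (Notch1) and -0.13 to 0.083 (Rbpj). For KO PBS against WT PBS they were -0.018 to 0.40 (Notch2) and -0.097 to 0.18 (Rbpj). For KO Tau against KO PBS they were -0.49 to 0.11 (Dll1) and -0.084 to 0.20 (Rbpj), and for the interaction -0.52 to 0.073 (Dll1) and -0.22 to 0.058 (Rbpj). In the Tau libraries the ranges were -1.09 to 0.19 for Hes5 and -0.024 to 0.087 for Rbpj (female genotype), -0.051 to 0.039 for Rbpj (female against male) and -0.045 to 0.16 for Rbpj (sex by genotype). Between sexes, 1 (without 341, 22.8% of all genes called) to 3 (without 711, 40.7%) members and 3 (without 331, 3.99%) to 31 (without 711) other pathway genes were called. Over the 6 groups, 1 to 2 members and 7 (without 331, 10.4% of all genes) to 24 (without 711, 30.2%) other pathway genes were called. With 2 to 3 libraries per group, member intervals in males reached up to 1.96-fold for KO Tau against WT PBS. On the log2 scale they reached 1.37 for KO Tau against KO PBS and 1.72 in the interaction. Changes within the intervals were not excluded, and the intervals are not limits of detection under the correction over all genes.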
